A study of Rattus norvegicus with 2 samples.

Results

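Ion channels of the sodium, calcium, TRP and chloride classes were followed by their transcripts in 2 colonies of the rat glioma line C6, No.4 and No.8, each titled as a single colony. Members were all genes whose symbol begins with Scn and a digit, Cacn, Trpa, Trpc, Trpm or Trpv and a digit, Clcn, Clic and a digit, Ano and a digit, or Lrrc8, measured by a feature that carries exactly 1 gene symbol. There were 83 such genes among 18166 measured, on 84 features, since Clcn6 has 2; where a gene had several features, the feature with the highest mean level stood for it. A feature shared by Cacng8 and Mir935 was left out. The symbol rule also takes in Trpc4ap, a protein associated with TRPC4 that is not itself a channel subunit.

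Colonies No.4 and No.8 each gave total RNA for 1 whole-transcript array, and both are titled undifferentiated. Both grew in DMEM with 10% FBS, and both carry the same treatment text of 20 µM CHIR99021, a GSK3 inhibitor, and 100 µM forskolin, which raises cyclic AMP, for 35 days. Whether that treatment preceded the RNA extraction is not settled by the labels. The labels name no genetic change in either and do not state that a colony is a clone. A colony cannot be told apart from the culture it was grown in. No colony has a second array, so there is no replicate or test, and each value is 1 measurement.

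Voltage-gated sodium and calcium channels open when a membrane depolarizes and carry the upstroke of action potentials and calcium entry into excitable cells, with accessory subunits that set their trafficking and gating. TRP channels pass cations in response to heat, osmotic stretch, lipids or receptor signals. Chloride is moved by CLC channels and exchangers, by anoctamins, some of which scramble membrane lipids, and by the LRRC8 proteins, which assemble the anion channel that opens when a cell swells. Glial cells are not excitable in the way neurons are, and volume-regulated anion channels and stretch-sensitive cation channels have been studied in them for their part in volume control.

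Levels are the deposited values in log2 units, so a difference of 1 is 2-fold, and differences are always the level in No.8 minus that in No.4. A higher level of a gene than of another does not show more transcript, because each feature has its own probes. A floor was set at 4.33, the median of the whole deposited table, and a gene with either level at or above it counts as past the floor. A stricter mark is 5.67, the 99th percentile of 1184 olfactory receptor genes, a family mainly active in the nose; levels below it may be near background. Of all genes, 11069 were past the floor, and the middle 50% of their differences lay between -0.22 and 0.30. Of 10 fixed glial markers 7 were past the floor, among them Vim, S100b, Nes and Sox2, while Aqp4, Slc1a3 and Sox9 were below it. All 6 microglial and macrophage markers and all 3 measured endothelial markers were below the floor, and of 8 neuronal markers only Map2 (8.10 and 8.50) passed 5.67.

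Chloride-class genes were past the floor more often than sodium, calcium and TRP channel genes. Among Clcn, Clic, Ano and Lrrc8 genes 19 of 26 were past the floor (73.1%), and among Scn, Cacn and Trp genes 21 of 57 (36.8%). Over all measured genes the share was 60.9%, and over the 83 members 40 genes, or 48.2%. Past the mark of 5.67 in at least 1 colony were 14 of the 26 chloride-class genes (53.8%) and 10 of the other 57 (17.5%), Trpc4ap among them, beside 44.9% of all measured genes. By family, the members past the floor were 3 of 8 sodium channel pore genes, 0 of 3 sodium channel accessory genes, 3 of 9 calcium channel pore genes (Cacna1), 2 of 4 Cacna2d, 2 of 4 Cacnb and 3 of 7 Cacng genes. In the TRP classes they were 0 of 1 Trpa, 2 of 7 Trpc, 4 of 8 Trpm and 2 of 6 Trpv genes. In the chloride classes they were 6 of 7 Clcn, 4 of 6 Clic, 5 of 8 Ano and 4 of 5 Lrrc8 genes.

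**Figure D1:**
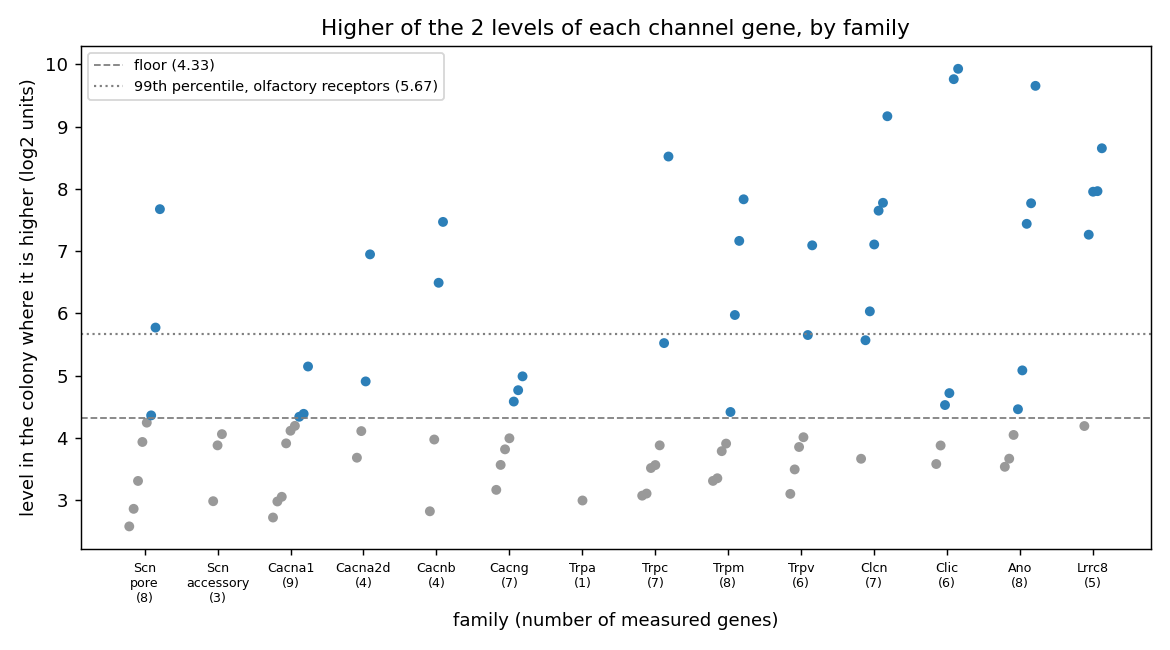
Each point is 1 of the 83 channel genes, placed by family along the horizontal axis (number of measured genes in brackets) and by the level in the colony where it was higher (log2 units). Blue points are past the floor of 4.33 (dashed line) and grey points below it, the dotted line marks 5.67, and no Cacna1, Cacng, Trpa or Scn accessory gene lies above the dotted line.

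Between the colonies, 5 channel genes differed by at least 2-fold. Clcn4, which encodes an endosomal chloride/proton exchanger, and Ano4, a member of the anoctamin family, were higher in No.8. Trpv4, a cation channel opened by osmotic and mechanical stimuli, Scn7a, the sodium sensor channel NaX, and Clcn5, a close relative of Clcn4, were higher in No.4. Of the 40 members past the floor, 2 exceeded No.4 by 2-fold or more in colony No.8, beside 2.91% of all genes past the floor, and 3 exceeded No.8 by that much in colony No.4, beside 2.57%. Together 12.5% of the members past the floor differed by 2-fold, against 5.47% of all genes past the floor; with 5 genes this is a count and carries no test. In a bulk RNA sample, fewer cells with a transcript and less of it per cell cannot be told apart. The members did not shift in a common direction: 20 were higher and 20 lower in No.8, with a median of 0.03 over the 40 and 0.0057 over all 83, beside 0.04 and 0.03 for all genes past the floor and all measured genes. At 1.5-fold there were 6 members in each direction, against 9.87% and 7.93% of all genes past the floor for No.8 and No.4, and the 7 added were Lrrc8c, Trpv2, Clcn2 and Trpm3, higher in No.8, and Cacnb2, Clic5 and Scn1a, higher in No.4. At 3-fold only Clcn4 and Trpv4 were left, 1 in each direction, beside 0.949% and 0.705% of all genes past the floor for No.8 and No.4.

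**Figure D2:**
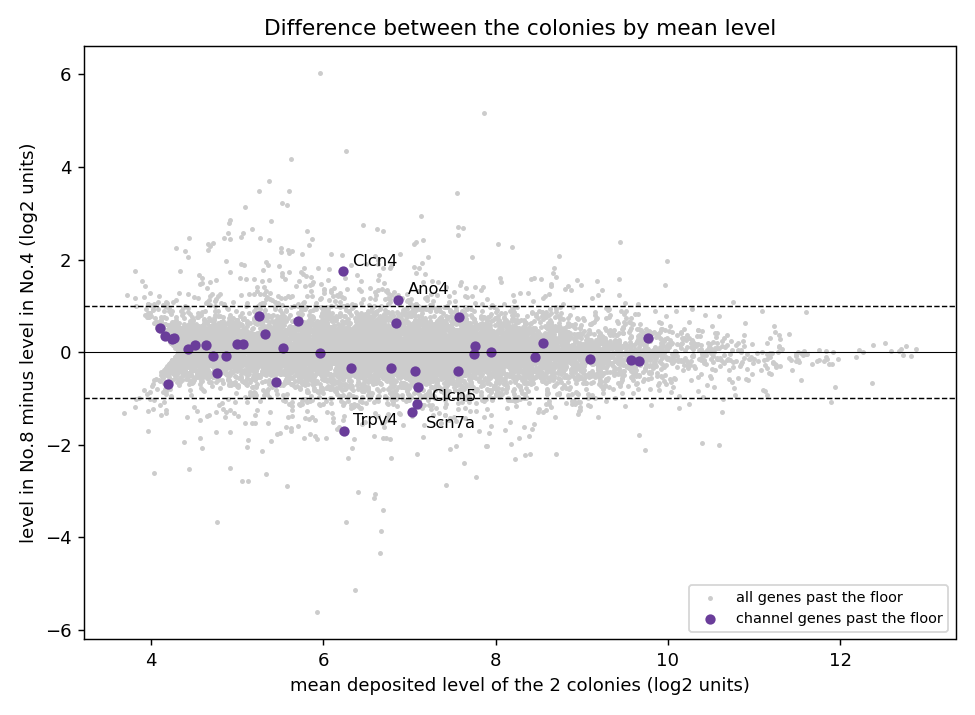
Each point is a gene past the floor, with its mean level in the 2 colonies on the horizontal axis and the level in No.8 minus that in No.4 on the vertical axis, both in log2 units. The 40 channel genes (purple) lie among all 11069 genes (grey), and the 5 named genes lie beyond the dashed lines that mark 2-fold.

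To show what lies upstream of the gene with the widest difference in each direction, Clcn4 and Trpv4, and of Clcn5, the relative of Clcn4 that differed the opposite way, the 250 bases before each transcription start are printed 5′ to 3′ as RefSeq gives them for assembly GRCr8. Capitals mark matches, on either strand, to any of the 5 letter strings searched: TGACGTCA (the full cyclic AMP response element), CTTTGAT (a core that TCF and LEF factors bind), GGGCGG (an Sp1-type GC box), CCAAT and TATAAA. Clcn5 has 2 annotated starts and both are shown.
Clcn4 (chrX:27290689-27290938, + strand): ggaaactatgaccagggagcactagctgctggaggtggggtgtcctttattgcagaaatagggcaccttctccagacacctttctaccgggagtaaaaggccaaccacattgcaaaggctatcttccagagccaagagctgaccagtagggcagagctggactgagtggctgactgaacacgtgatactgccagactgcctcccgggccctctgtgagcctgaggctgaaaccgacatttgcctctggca
Clcn5, first start (chrX:17857010-17857259, + strand): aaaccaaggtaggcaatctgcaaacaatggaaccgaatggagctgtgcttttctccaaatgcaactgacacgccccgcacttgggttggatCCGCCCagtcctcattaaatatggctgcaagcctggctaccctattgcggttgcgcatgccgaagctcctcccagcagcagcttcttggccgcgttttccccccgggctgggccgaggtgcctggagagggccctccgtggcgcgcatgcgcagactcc
Clcn5, other start (chrX:17979730-17979979, + strand): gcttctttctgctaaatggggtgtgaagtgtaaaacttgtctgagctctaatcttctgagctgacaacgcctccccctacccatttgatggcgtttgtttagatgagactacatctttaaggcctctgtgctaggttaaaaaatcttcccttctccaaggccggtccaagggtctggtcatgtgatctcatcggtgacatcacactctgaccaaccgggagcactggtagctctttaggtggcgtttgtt
Trpv4 (chr12:47598938-47599187, + strand): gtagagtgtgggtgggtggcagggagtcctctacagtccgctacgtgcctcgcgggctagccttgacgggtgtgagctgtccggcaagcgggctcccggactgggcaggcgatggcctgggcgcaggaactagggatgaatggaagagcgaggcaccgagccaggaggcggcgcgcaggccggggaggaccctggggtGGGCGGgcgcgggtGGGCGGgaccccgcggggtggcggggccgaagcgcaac

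The Trpv4 window held 25 CG dinucleotides and 2 GC boxes, at -52 and -38 from the start. The Clcn4 window held 4 CG dinucleotides and none of the strings, and the Clcn5 windows held 15 and 6, with 1 GC box on the minus strand in the first. Promoter windows were matched for 65 of the 83 members, 78 windows in all. Windows of members past the floor held a median of 19 CG dinucleotides (43 windows) and those of members below it 5 (35 windows), as did the 33469 windows of all genes. The windows of all genes were not split by the floor, so whether this gap is particular to the members was not tested. GGGCGG was in 34 of the 78 windows (43.6%, against 30.5% of all), CCAAT in 17 (21.8% against 34.0%) and TATAAA in 4 (5.13% against 12.9%). TGACGTCA was in the windows of Clcn3 and Lrrc8a (2.56% against 1.59%), and CTTTGAT in that of Clcn3 (1.28% against 3.15%). Clcn3 and Lrrc8a differed between the colonies by -0.05 and -0.0059. The strings can overlap in a window, and a match describes letters only.

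Sodium channel genes were mostly near background, with Scn7a the exception. Its levels were 7.67 in No.4 and 6.38 in No.8, or 2.45-fold more in No.4. Both levels were above 5.67, and the size of its difference ranked 311 among the 11069 genes past the floor. NaX, its product, responds to extracellular sodium rather than to voltage and is known from glia of sodium-sensing brain regions. Scn1a, the neuronal channel Nav1.1, lies close to it on chromosome 3 with Scn9a between them in the order of measured genes. Scn1a was at 5.77 and 5.12, a difference of -0.65, with the lower level under 5.67, whereas Scn9a was below the floor in both colonies (2.41 and 2.58). Scn11a, a channel of pain-sensing neurons, just reached the floor in No.8 (3.85 and 4.36).

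Below the floor in both colonies were the pore genes Scn2a, Scn4a, Scn8a, Scn9a and Scn10a and the accessory genes Scn2b, Scn3b and Scn4b, at levels between 2.41 and 4.25. These include the main sodium channels of brain axons, skeletal muscle and sensory neurons. Beside Scn7a, the glial lineage markers Olig2 (6.36 and 4.22) and Cspg4 (6.37 and 4.62) were also lower in No.8, and Gfap (4.11 and 5.17) was higher. Gfap was under 5.67 in both colonies, and counted from 5.67 Olig2 was 1.61-fold and Cspg4 1.62-fold higher in No.4. The other glial markers past the floor did not reach 2-fold. Of these, S100b (8.24 and 8.46), Vim (12.57 and 12.60) and Nes (9.54 and 9.94) were higher in No.8, and Sox2 (9.08 and 8.44) was lower. Markers of muscle were past the floor for 3 of 4 measured skeletal, 2 of 4 heart and 2 of 3 smooth muscle genes, and of these Tagln of smooth muscle (3.92 and 5.45) and Tnnt2 of heart (4.76 and 5.83) were also 2-fold higher in No.8 as deposited, with only Tnnt2 in No.8 above 5.67. Of 4 measured sensory neuron markers 2 were past the floor, none above 5.67. The part of these markers in the result was not tested.

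Calcium channel pore genes had no member above 5.67 in either colony. Cacna1a, the pore of P/Q-type channels, was at 4.98 and 5.15, and the T-type pore genes Cacna1g (4.10 and 4.39) and Cacna1i (3.99 and 4.34) reached the floor in No.8 only. The L-type genes Cacna1c, Cacna1d and Cacna1f, with Cacna1b, Cacna1e and Cacna1h, stayed below the floor in both, between 2.55 and 4.20. All differences of Cacna1 genes past the floor were at most 0.36.

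Accessory calcium channel genes included 3 that were above 5.67 in both colonies, all lower in No.8 and none by 2-fold. Cacnb2, a cytosolic beta subunit that brings pores to the membrane, was at 7.47 in No.4 and 6.72 in No.8, a difference of -0.75. Cacnb3, another beta subunit, was at 6.49 and 6.15. Cacna2d1, the alpha-2-delta subunit that binds gabapentin, was at 6.95 and 6.61. The other beta genes, Cacnb1 (3.98 and 3.89) and Cacnb4 (2.82 and 2.51), were below the floor in both colonies. The median difference over the 4 beta genes was -0.33, and -0.17 with levels raised to the floor.

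Cacna2d2 was at 4.91 and 4.83, and Cacna2d3 and Cacna2d4 were below the floor. Of the gamma genes, which accompany calcium channels of muscle or AMPA-type glutamate receptors, Cacng1 (4.44 and 4.59), Cacng6 (4.77 and 4.68) and Cacng7 (4.99 and 4.55) lay between the floor and 5.67. Cacng2, Cacng3, Cacng4 and Cacng5 were below the floor, between 3.16 and 4.00.

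**Figure D3:**
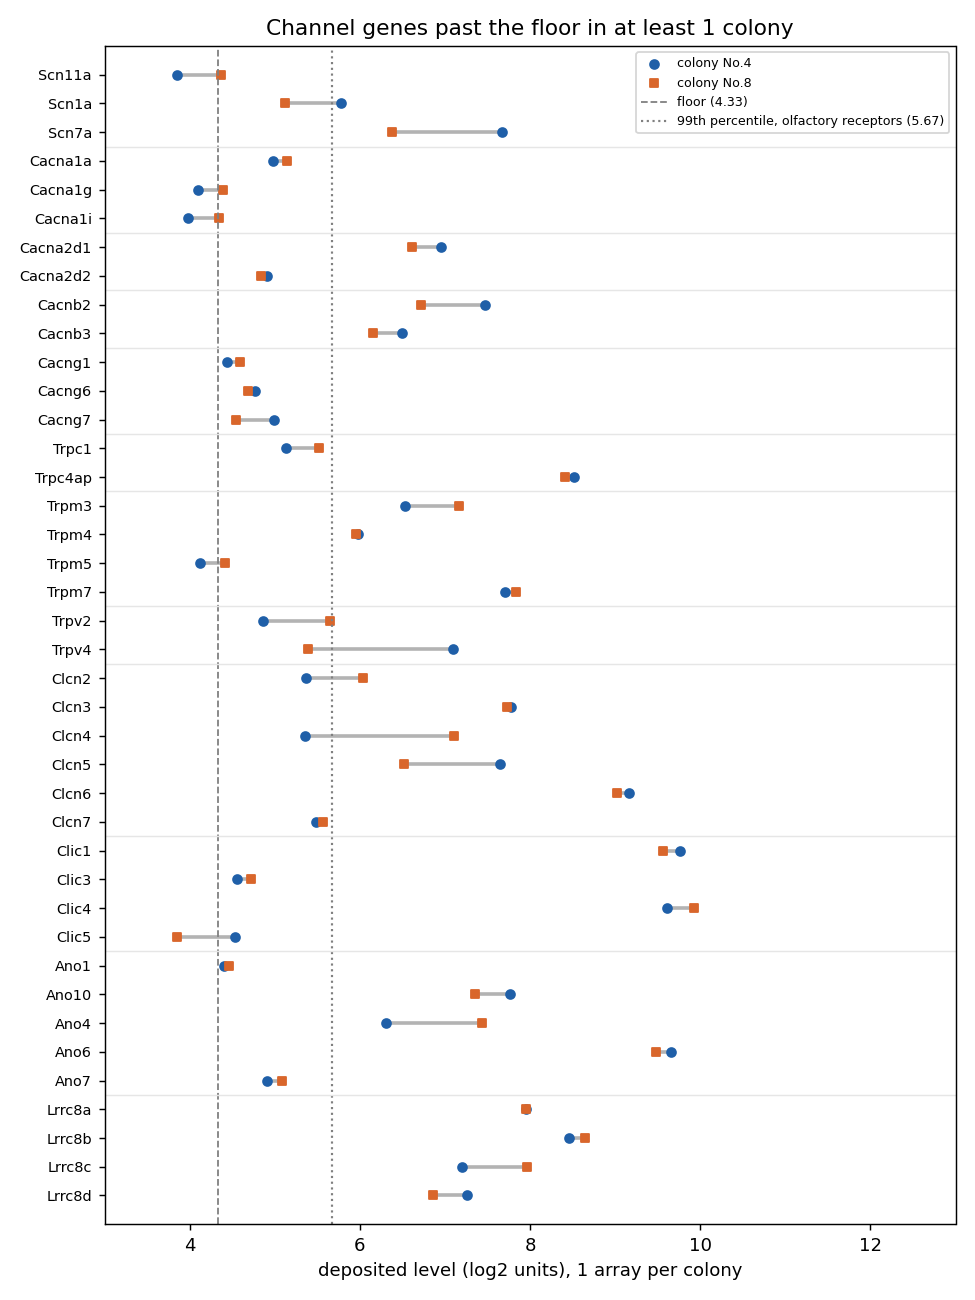
Levels of the 40 channel genes past the floor in colony No.4 (blue circles) and colony No.8 (orange squares), in log2 units with 1 array per colony, grouped by family from top to bottom. The longest bars are those of Clcn4 (5.35 and 7.11) and Trpv4 (7.09 and 5.39), and the dashed and dotted lines mark 4.33 and 5.67.

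TRP channels held the widest difference toward No.4. Trpv4 was at 7.09 in No.4 and 5.39 in No.8, which is 3.25-fold, and 2.68-fold when the lower level is counted from 5.67. The difference ranked 157 of 11069. Trpv2, a related channel opened by membrane stretch and agonists such as probenecid, went the other way, at 4.86 and 5.65, both under 5.67. The other vanilloid-type genes were below the floor, from 2.97 to 4.01: Trpv1 and Trpv3, sensors of heat and of plant compounds, and Trpv5 and Trpv6, calcium-selective channels of epithelia.

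Trpm genes had 3 members above 5.67 in both colonies. Trpm7, a channel fused to a kinase and involved in magnesium entry, was at 7.70 and 7.83. Trpm3, a heat- and steroid-activated channel, was at 6.53 and 7.16, 1.55-fold higher in No.8. Trpm4, a sodium-permeable channel opened by intracellular calcium, was at 5.97 and 5.96. Its difference of -0.02 became 0.0095 after quantile normalization, so no direction is given. Trpm5, known from taste cells, reached the floor in No.8 only (4.12 and 4.42), and Trpm1, Trpm2, Trpm6 and Trpm8 were below it in both.

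In the Trpc family, Trpc1, a subunit of receptor- and store-linked cation channels, was at 5.13 and 5.52. Trpc2, Trpc4, Trpc5, Trpc6 and Trpc7 were below the floor, between 2.68 and 3.88, as was Trpa1, the irritant receptor (3.01 in both colonies). Trpc4ap was at 8.52 and 8.41. Apart from this associated protein, no Trpc gene was above 5.67.

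The CLC family held the widest difference toward No.8 and an opposite difference in a close relative. Clcn4 was at 5.35 in No.4 and 7.11 in No.8, which is 3.37-fold, and 2.70-fold when the lower level is counted from 5.67. Its difference ranked 142 of 11069. Clcn5, whose product acidifies endosomes of the kidney tubule and is defective in Dent disease, was at 7.65 and 6.52, 2.18-fold higher in No.4, with both levels above 5.67. Clcn3, the third gene of this group of endosomal chloride/proton exchangers, was at 7.78 and 7.72. The 3 related exchangers therefore split into a higher, a lower and a nearly equal gene.

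Clcn2, a chloride channel of the plasma membrane that glial cells carry, was at 5.37 and 6.03, 1.58-fold higher in No.8 and 1.28-fold when the lower level is counted from 5.67. Clcn6, an exchanger of late endosomes, was at 9.16 and 9.03, and its second feature (8.74 and 8.37) was also lower in No.8. Clcn7, the lysosomal exchanger, was at 5.48 and 5.57. Its partner Ostm1, from the list of other anion transport genes, was at 7.93 and 8.60. Clcn1, the chloride channel of skeletal muscle, was below the floor (3.67 and 3.44).

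LRRC8 proteins make the volume-regulated anion channel from LRRC8A, which every channel needs, and 1 or more partners. Lrrc8a was at 7.95 in both colonies, with a difference of -0.0059 that changed sign after quantile normalization. Of the partners past the floor, only Lrrc8c reached 1.5-fold, at 7.19 and 7.96 (1.70-fold higher in No.8). Lrrc8b was at 8.45 and 8.65, and Lrrc8d at 7.26 and 6.86. Lrrc8d, Lrrc8c and Lrrc8b follow each other on chromosome 14, and their differences of -0.41, 0.77 and 0.20 were unequal. Lrrc8e was below the floor (3.34 and 4.19).

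Among anoctamins, Ano4 had levels of 6.31 in No.4 and 7.44 in No.8, or 2.19-fold more in No.8, with both levels above 5.67, and ranked 442 of 11069. Ano6, a calcium-activated lipid scramblase, was at 9.65 and 9.49, and Ano10 at 7.77 and 7.35. Ano1, the main calcium-activated chloride channel of epithelia and smooth muscle, was at the floor (4.40 and 4.46), and Ano7 at 4.91 and 5.09. Ano2, Ano3 and Ano9 were below the floor.

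CLIC proteins, which occur in soluble and membrane-bound forms, were represented by Clic1 (9.76 and 9.57) and Clic4 (9.61 and 9.93). Neither differed by 1.5-fold. Clic3 (4.56 and 4.72) and Clic5 (4.53 and 3.85) lay under 5.67, and Clic2 and Clic6 were below the floor. Clic5 was 1.60-fold higher in No.4 in deposited values, but 1.15-fold when the lower level is counted from the floor.

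The genes next to each member at 2-fold in the order of measured genes were also examined. Ano4 lies between Slc5a8 (3.35 and 3.40) and Gas2l3 (9.83 and 9.64). Clcn4 lies between Samt2 and Mid1, both below the floor in both colonies. Trpv4 lies between Gltp (7.93 and 8.25) and Fam222a (7.23 and 6.57), and Fam222a differed by -0.66 in the same direction as Trpv4. Scn7a lies between Scn9a and Rps3l1, both below the floor in both colonies; Rps3l1 (3.64 and 2.81) differed by -0.84, in the same direction as Scn7a. Clcn5 follows Foxp3, which was below the floor, and is followed by Mir532, a microRNA gene that was 2-fold lower in No.8 as deposited.

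Mir532 lies inside the Clcn5 gene, and so the microRNA genes within the span of any member were looked up, a choice made after the Mir532 value had been seen. There were 8, all measured: Mir188, Mir362, Mir500, Mir501, Mir532 and Mir3560 inside Clcn5, Mir204 inside Trpm3 and Mir211 inside Trpm1. Such microRNAs are often cut from the transcript of the gene around them, and an array feature for one may report the precursor, the host's intron or both. The microRNA genes inside Clcn5 lie between its first and its other start, so a transcript from the other start does not span them. Which start the Clcn5 feature reports was not tested. To compare seeds, the mature sequences of Mir501, Mir532 and Mir362, the genes past the floor inside Clcn5, and the 5p arms of Mir204 and Mir211 are printed as RefSeq gives them for GRCr8, with the seed (bases 2 to 8) in capitals.
rno-miR-501-5p: aAUCCUUUgucccuggguga
rno-miR-501-3p: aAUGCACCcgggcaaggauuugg
rno-miR-532-5p: cAUGCCUUgaguguaggacugu
rno-miR-532-3p: cCUCCCACacccaaggcuugca
rno-miR-362-3p: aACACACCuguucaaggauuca
rno-miR-204-5p: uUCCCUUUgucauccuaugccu
rno-miR-211-5p: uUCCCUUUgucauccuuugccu

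The Trpm3 and Trpm1 microRNAs share the seed UCCCUUU, so miR-204-5p and miR-211-5p belong to the same seed family. Trpm3 and Mir204 were both higher in No.8: Mir204 was at 5.34 and 5.89, a difference of 0.55 beside 0.64 for its host. Trpm1 (3.79 and 3.71) and Mir211 (3.93 and 3.98) were below the floor in both colonies.

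Inside Clcn5, Mir501 was at 5.35 in No.4 and 3.99 in No.8 (-1.36), Mir532 at 4.63 and 3.41 (-1.22) and Mir362 at 4.41 and 3.79 (-0.63), beside -1.13 for Clcn5. All these levels were under 5.67, and each gene was below the floor in No.8. A gene past the floor only in No.4 is lower in No.8 by that rule, so the direction these microRNA genes share with Clcn5 carries no information. Of all 6 measured inside Clcn5, 4 were lower in No.8. Counted from the floor, Mir501 was 2.03-fold and Mir532 1.23-fold higher in No.4. Counted from 5.67, both differences were 0. Mir188 (4.06 and 3.76), Mir500 (3.69 and 3.71) and Mir3560 (2.72 and 2.95), which is read from the opposite strand, were below the floor in both colonies. Among all 352 microRNA genes measured, 105 were past the floor; 7 of these, or 6.67%, reached 2-fold toward No.4 and 0 toward No.8. Mir501 and Mir532 are among the 7.

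**Figure D4:**
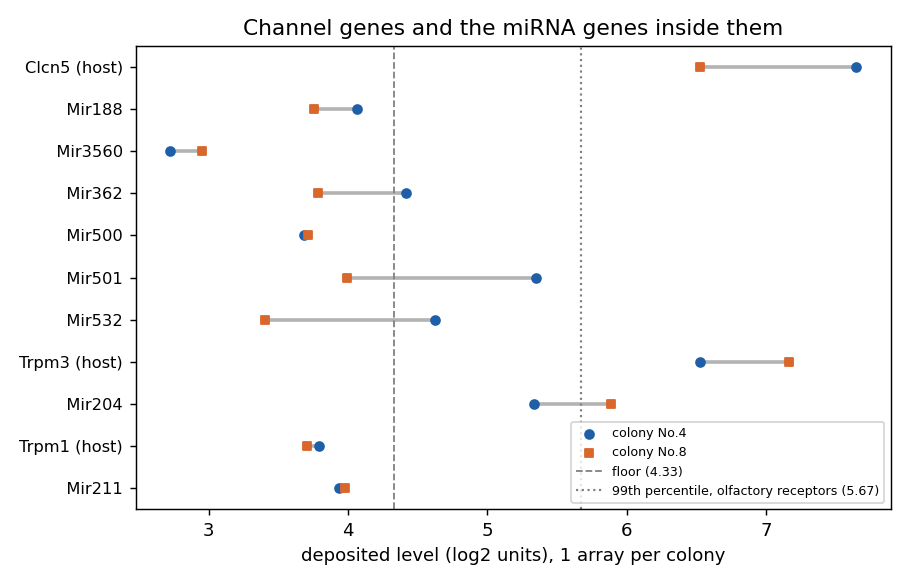
Levels of Clcn5, Trpm3 and Trpm1 and of the microRNA genes inside them in colony No.4 (blue circles) and colony No.8 (orange squares), in log2 units with 1 array per colony. Clcn5, Mir501 and Mir532 are lower in No.8 and Trpm3 and Mir204 are higher, with all microRNA levels except that of Mir204 in No.8 left of the dotted line at 5.67.

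Other genes of ion transport were described through 6 fixed lists. In the list of other anion channels and chloride cotransporters, 11 of the 12 genes past the floor were higher in No.8. Over all genes past the floor, 5890 of 11069 were higher in No.8. Of the 12 listed genes, 0 reached 2-fold and 10 were above 5.67 in both colonies. The median over those 12 was 0.44, beside 0.04 for all genes past the floor. Over all 23 measured genes of the list, 16 were higher, 6 lower and 1 equal in No.8. Their median was 0.19, beside 0.03 for all measured genes. The cotransporter genes Slc12a2 (NKCC1, which loads chloride into cells; 8.23 and 9.17) and Slc12a4 (KCC1, which exports it; 7.74 and 8.66) differed by 0.94 and 0.93. Vdac2, a porin of the outer mitochondrial membrane, was the gene that was lower (7.89 and 7.39).

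The list of store-operated and intracellular calcium genes had 16 of 20 measured members past the floor, 10 higher and 6 lower in No.8. Orai1 (6.26 and 6.72), Stim1 (7.17 and 7.20) and Stim2 (7.82 and 8.32), the pore and sensors of store-operated entry, differed by less than 2-fold, and Atp2a2, the pump that refills the store, was at 10.32 and 9.64. Mcub, a negative subunit of the mitochondrial calcium uniporter, was at 5.09 and 3.90. As deposited that is 2-fold or more, but the gene is under 5.67 in both colonies and the difference counted from the floor is 1.70-fold.

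Of the channel-associated regulators, 12 of 18 measured were past the floor, and 1 reached 2-fold. Stac2, an adaptor that binds voltage-gated calcium channels, had levels of 9.18 in No.4 and 7.19 in No.8, or 3.95-fold more in No.4, the widest difference in the 6 lists. Nedd4, a ubiquitin ligase that removes channels from the membrane, was at 11.89 and 11.78, Rest, a repressor of neuronal genes including sodium channels, at 7.87 and 7.75, and the membrane anchor Ank3 at 6.39 and 7.14.

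In the remaining lists 0 genes reached 2-fold. Among the other TRP-like channels 3 of 7 were past the floor, with the lysosomal channel gene Mcoln1 at 7.05 and 8.03 (a difference of 0.99). Among calcium and sodium extrusion genes 7 of 11 were past it, with Atp2b1, a plasma membrane calcium pump, at 9.96 and 9.99 and Slc8b1, the mitochondrial sodium/calcium exchanger, at 6.77 and 5.85. Of 10 measured genes on the list of other sodium and acid-sensing channels, Asic2 (6.14 and 6.25) and Scnn1a (4.52 and 4.64) were past the floor.

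**Figure D5:**
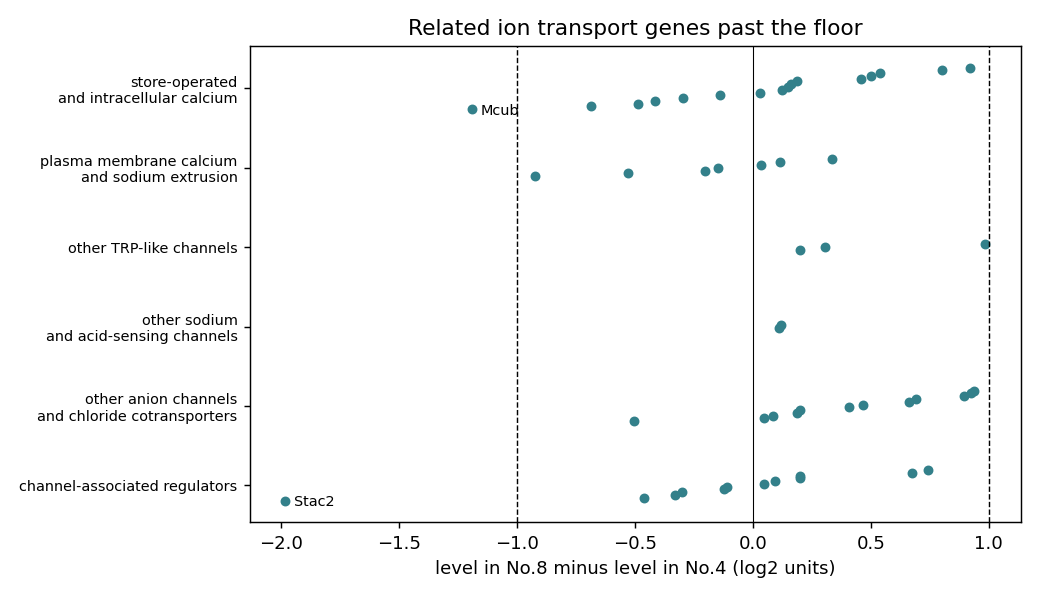
Each point is a gene past the floor from 1 of the 6 lists of related ion transport genes, placed by the level in No.8 minus that in No.4 (log2 units), with dashed lines at 2-fold. Stac2 and Mcub are beyond the line toward No.4, and 11 of the 12 anion transport genes lie to the right of 0. Over all genes past the floor, 5890 of 11069 were higher in No.8.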

How the data were processed

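The authors deposited 1 table of 36685 features with a value per colony, used as log2 levels; the scale is inferred from the largest value, 13.34, and no source used here states the software, background correction or normalization. Medians were 4.34 and 4.31 in No.4 and No.8, so the deposited log2 values were not rescaled. Platform annotation named 18511 features with 1 symbol; 575 with several and 17599 with none were left out. Gene order and promoters came from RefSeq tables of GRCr8, where 82 of the 83 members matched; the array's build is not given. The members and lists were chosen with earlier results of these data known. Every member past the floor could be named; listed genes were named at 2-fold, as the list's highest deposited level (used only to pick a name), or after their values were seen (S100b, Nes, Sox2, Sox9, Aqp4, Slc1a3, Orai1, Stim1, Stim2, Map2, Slc12a2, Slc12a4, Vdac2, Ostm1, Rest, Ank3, Mcoln1, Slc8b1, Scnn1a). With 1 array per colony, the number of arrays limits the precision. Steps used Python 3.11.15, pandas 2.3.3 and statsmodels 0.14.6. Only the rule that calls a 2-fold difference was tested on simulated data. The simulated differences were larger than 2-fold and lay in genes well above the floor. Alternatives were 3 scalings, other floors, treatments of low levels, features and fold sizes.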

Additional observations from a re-analysis of the deposited data

How the results depend on the processing

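The counts of 2 and 3 channel genes at 2-fold (No.8 and No.4) were the same with differences centred on the median, quantile normalization and loess. They were also the same with no floor, both higher floors and levels raised to either mark. The other feature choices, and leaving out Trpc4ap, added after seeing the data, could not change these counts. Only Clcn6 has 2 features, the feature shared by Cacng8 and Mir935 has equal values, and Trpc4ap differed by -0.11. With an offset of 64 on the linear scale, which shrinks every difference of dim genes by construction, the counts were 0 and 0. Over all genes past the floor 1.51% then remained at 2-fold. The counts were 6 and 6 at 1.5-fold and 1 and 1 at 3-fold. The 40 members past the floor became 24 at the mark of 5.67, 21 at the upper quartile of 6.37 and 83 with no floor. The median difference over members stayed between -0.02 and 0.04 under all its alternatives, so its sign is not settled; the scalings moved the median of all genes by under 0.1. Differences ranged from 0.94 to 1.76 for Clcn4, 0.73 to 1.13 for Ano4, -1.75 to -0.92 for Trpv4, -1.34 to -0.86 for Scn7a and -1.17 to -0.76 for Clcn5, all smallest with the offset. Mir501, Mir532 and Mcub fell to a difference of 0 with levels raised to 5.67. Over single genes and families, 501 of 528 alternative values moved by less than 0.39, the robust spread of all differences past the floor. That count includes the feature choices, which cannot move a gene that has 1 feature, as all members but Clcn6 do. No paired analysis was possible because each colony has 1 array.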

Other observations

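Some dim genes held exactly the same deposited value in both colonies. This was so for 4 members, Cacna1e (3.06), Scn3b (2.99), Trpa1 (3.01) and Trpc4 (3.07), and for 6.90% of all genes below the floor against 1.31% of those past it. Scn2b and Trpc2, which lie on different chromosomes, carried the same pair of values as each other, 3.88 in No.4 and 3.71 in No.8, and 2491 of the 36685 features shared both values with another feature.

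Of the 4 members on the X chromosome, Cacna1f and Trpc5 were below the floor, and Clcn4 and Clcn5 were the members past it, at least 2-fold apart in opposite directions. Of 325 X-linked genes past the floor, 19 reached 2-fold toward No.8 and 11 toward No.4, together 9.23%, beside 5.47% of all genes past the floor. Clcn4 and Clcn5 are among these genes. The share was not computed for other chromosomes, so whether that of the X is unusual was not tested.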
